A study of Mus musculus with 6 samples.

Results

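The serotonin receptor genes measured here were Htr1a, Htr1b, Htr1d, Htr2a, Htr2c, Htr3a, Htr4, Htr5a, Htr5b and Htr7, taken by symbol from a count table of 24062 symbols. All 10 were listed. The libraries came from the ventral dentate gyrus of male mice of the C57black 6 strain. 3 were from mice given chronic restraint stress and 3 from mice that were not stressed (controls). Per the design text the replicates are biological. No allele, drug or age is given in the labels. Whether animals were pooled is not stated either, and the p-values reflect only the spread among these 6 libraries. The series is titled for the glial glutamate exchanger xCT in resilience to stress, and its comparison is stress against control.

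Serotonin reaches the hippocampus in axons from the raphe nuclei of the brainstem, so the receiving tissue makes the receptors and not the transmitter. Most receptors act through G proteins. Htr1a, Htr1b, Htr1d, Htr5a and Htr5b encode receptors of the inhibitory Gi/o type, Htr2a and Htr2c receptors that couple to Gq and phospholipase C, and Htr4 and Htr7 receptors that couple to Gs and raise cyclic AMP. Htr3a encodes a subunit of a cation channel opened by serotonin. In the dentate gyrus the Htr1a receptor restrains granule cells, and Htr4 is known from granule cells as a target in antidepressant research. Htr2c is known for high expression in the epithelium of the choroid plexus.

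None of the receptor genes passed the test for stress against control. 9 of the 10 passed the filter on low counts, and 0 of these 9 had an adjusted p under 0.05 by edgeR's quasi-likelihood test, where 0.0285% of the 14058 tested genes were called. 6 of the 9 had a positive log2 fold change and 3 a negative one. Their median was 0.24, against 0.0038 over all tested genes. Without stress replicate 1, the library with the most unusual markers, 6 were again positive and 3 negative, and the median was 0.10, against -0.0053 over all genes tested in that fit. 3 of the 9, namely Htr5a, Htr2a and Htr4, had an unadjusted p under 0.05 by that test, as had 8.71% of all tested genes. DESeq2, which called 0.761% of all tested genes, also called 0 of the 9. So did edgeR's exact test, which called 0.932% of all tested genes, and limma-voom, which called 0.00711%. The gene with the widest spread was Htr2c, whose level in stress replicate 1 was far above that of the other 5 libraries.

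Stress replicate 1 stood apart in its cell type markers. Summed over a list of 10 choroid plexus markers, that library reached 4847 CPM (counts put on a common library total, with TMM scaling). Stress replicates 2 and 3 were at 33.8 and 29.5 CPM and the controls at 25.8 to 28.1 CPM. All 10 markers were highest in it. Ttr was at 4248 CPM there and at 2.08 to 6.51 CPM elsewhere, Kl at 199 CPM, Clic6 at 102 CPM and F5 at 97.5 CPM. The 7 striatal markers found in the files were also each highest in it, and summed to 910 CPM. Stress replicates 2 and 3 were at 183 and 194 CPM and the controls at 192 to 199.6 CPM. Pde10a, Penk, Ppp1r1b and Rgs9 led that list, at 335, 168, 142 and 95.5 CPM in stress replicate 1. The 8 markers of dentate granule neurons, the defining cells of the labelled tissue, were present in every library but each lowest in stress replicate 1. They summed to 356 CPM in it, 731 and 851 CPM in stress replicates 2 and 3, and 616 to 754 CPM in controls. Calb1 and Stxbp6 led that list, at 102 and 74.5 CPM in stress replicate 1. Fold changes of the tested receptor genes and medians of gene lists are therefore given with and without that library. In bulk tissue, fewer cells of a type and less RNA per cell cannot be told apart.

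**Figure D1:**
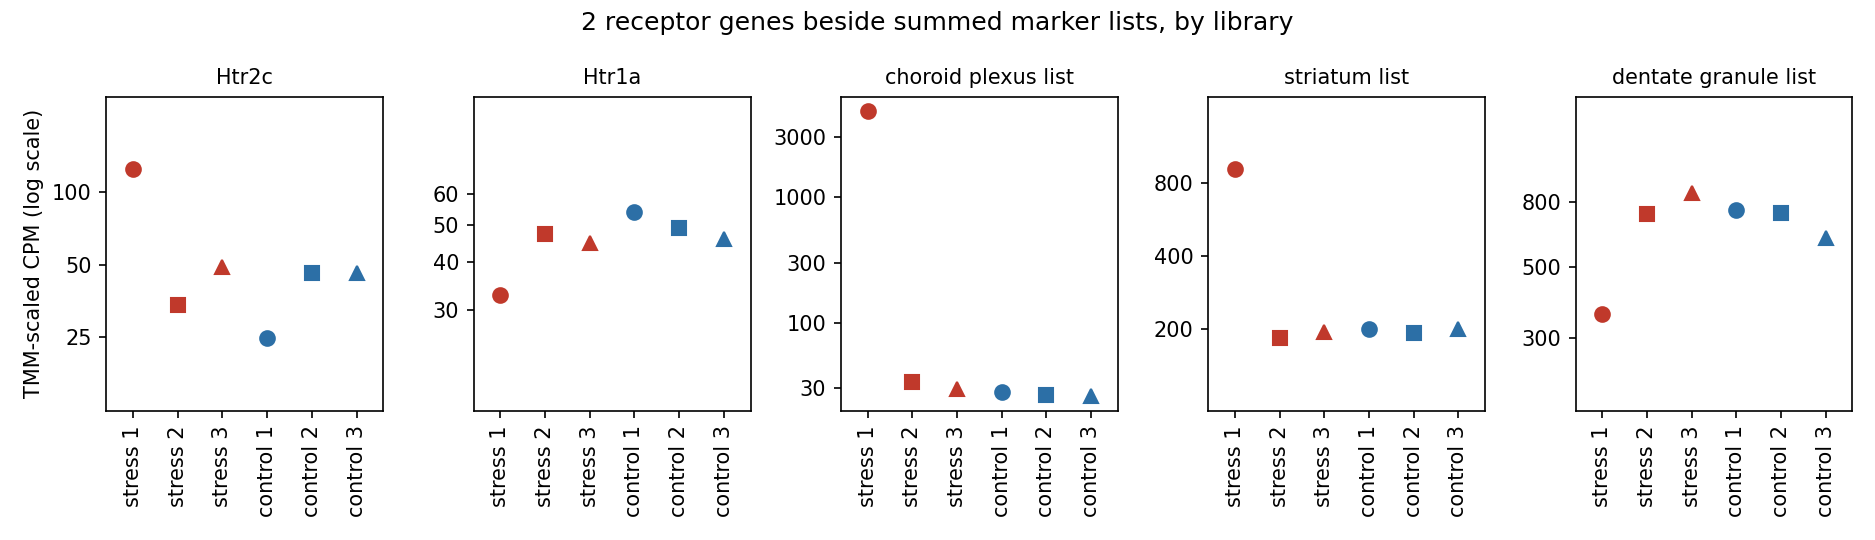
Each point is 1 library, with stress left of control and TMM-scaled CPM on log axes whose ranges differ between panels. Stress replicate 1 is at 125 CPM for Htr2c and 4847 CPM for the choroid plexus list, the highest of the 6 libraries in both panels, and the lowest for Htr1a, at 32.9 CPM, and for the granule neuron list, at 356 CPM.

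Htr2c, on chromosome X from 146962513 to 147197277 (GRCm38), was at 125, 34.2 and 49.1 CPM in the stress libraries and at 24.8, 46.1 and 46.4 CPM in the controls. Stress replicate 1 lay far above every control, stress replicate 3 just above the highest of them, and stress replicate 2 among them. The group means were 69.5 ± 48.8 CPM in stress and 39.1 ± 12.4 CPM in controls (SD, n = 3 each). This is a log2 fold change of 0.82 (SE 0.45) at an adjusted p of 0.668. It was 0.084 at an adjusted p of 0.940 when stress replicate 1 was left out. Control replicate 1 was the lowest of the 6, and the value without it was 0.59. The part that choroid plexus or striatal RNA has in the value of stress replicate 1 was not tested. 8 small RNA genes, among them Mir448, Mir764, Mir1264, Mir1298 and Mir1912, lie within Htr2c on the same strand.

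Htr2a encodes the other Gq-coupled receptor measured here, known from cortical pyramidal neurons and as a target of psychedelic drugs. It lies on chromosome 14 from 74640840 to 74709494. It was at 19.6, 13.4 and 15.0 CPM in the stress libraries and at 10.4, 9.20 and 14.5 CPM in the controls. The groups overlapped, because control replicate 3 lay above stress replicate 2. The difference of 0.50 on the log2 scale (SE 0.20) had an adjusted p of 0.542, and was 0.33 without stress replicate 1 and 0.72 without control replicate 3. The list of 8 neocortical and entorhinal markers summed to 397 to 556 CPM in stress and 611 to 665 CPM in controls, with Reln and Rasgrf2 its most abundant genes. The part of such cells in the Htr2a values was not tested.

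Htr1a was at 32.9, 47.2 and 44.7 CPM in the stress libraries and at 53.8, 49.0 and 46.0 CPM in the controls. Stress replicate 1 was the lowest of the 6 libraries, and stress replicate 2 lay above control replicate 3, so the groups overlapped. Means were 41.6 ± 7.65 CPM in stress and 49.6 ± 3.93 CPM in controls (SD, n = 3 each). The log2 fold change of -0.25 (SE 0.14) had an adjusted p of 0.668 and was -0.11 without stress replicate 1. The granule neuron markers were lowest in the same library, and their part in the Htr1a value was not tested. Htr1a is a gene with 1 exon block on chromosome 13, from 105443639 to 105448122.

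Htr5a encodes a Gi/o-coupled receptor found mainly in brain and lies on chromosome 5 from 27842149 to 27855088. It was at 15.5, 21.7 and 15.8 CPM in the stress libraries and at 21.3, 22.6 and 23.8 CPM in the controls. Stress replicates 1 and 3 lay below every control, while stress replicate 2 lay just above control replicate 1. Htr5a had the smallest p of the 9 tested receptor genes with all 6 libraries, at a log2 fold change of -0.36 (SE 0.14) and an adjusted p of 0.540. Leaving out 1 library at a time gave log2 fold changes from -0.53 to -0.27, all negative. Without stress replicate 1 the value was -0.27. The lowest adjusted p among these was 0.184, without stress replicate 2.

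Htr5b, the closest relative of Htr5a, is a working gene in mice and rats, while its human counterpart is disrupted. It was counted 40, 56 and 63 times in the stress libraries and 15, 64 and 56 times in the controls. Control replicate 1 was the low library, and its 15 counts have a 95% exact Poisson interval of 8.40 to 24.7 counts, below the other 5 values. This interval covers counting error only. Its log2 fold change of 0.29 (SE 0.42) had an adjusted p of 0.886 and turned to -0.074 without control replicate 1. Without stress replicate 1 it was 0.45, and the remaining stress libraries lay above every control, as for 14.6% of all genes tested in that fit. Htr5b lies on chromosome 1 from 121509842 to 121528465. Gm8217 overlaps Htr5b on the opposite strand. Such overlaps are between whole gene spans, and overlap of exons was not examined. No source used here gives the strand setting of the counting, and any effect of the overlaps on the counts was not tested.

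The promoter windows of 4 genes are printed because of their levels in stress replicate 1. Htr1d and Htr2c lay furthest above the median of the other 5 libraries there, at 9.91 and 2.71 times it. The ratio of Htr1d rests on low counts, 22 in stress replicate 1 and 1 to 6 in the other 5 libraries. Htr1a and Htr5a were the only ones of the 10 that were lowest of the 6 libraries there. The windows are RefSeq sequences on GRCm38.p6, plus strand, and end just before the RefSeq start, or before the GENCODE start where that comes first. RefSeq promoters were found for 7 of the 10 receptor genes. Capitals mark matches to GGGCGG, the core of the Sp1 site, on either strand.
Htr2c, chrX:146962263-146962512: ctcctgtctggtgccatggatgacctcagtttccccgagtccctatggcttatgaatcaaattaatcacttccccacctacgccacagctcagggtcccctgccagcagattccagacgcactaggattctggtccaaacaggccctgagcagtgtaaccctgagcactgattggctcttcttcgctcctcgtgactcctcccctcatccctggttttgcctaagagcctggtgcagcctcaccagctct
Htr1d, chr4:136423274-136423523: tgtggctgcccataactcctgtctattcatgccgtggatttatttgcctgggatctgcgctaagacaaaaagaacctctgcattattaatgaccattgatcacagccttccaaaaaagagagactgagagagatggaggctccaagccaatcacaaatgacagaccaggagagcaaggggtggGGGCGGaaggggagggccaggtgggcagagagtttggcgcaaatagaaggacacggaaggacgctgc
Htr1a, chr13:105443443-105443638: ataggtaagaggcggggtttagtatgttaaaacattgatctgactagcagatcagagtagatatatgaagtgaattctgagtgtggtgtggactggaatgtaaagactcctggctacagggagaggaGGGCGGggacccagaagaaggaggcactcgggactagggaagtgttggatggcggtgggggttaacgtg
Htr5a, chr5:27841697-27841946: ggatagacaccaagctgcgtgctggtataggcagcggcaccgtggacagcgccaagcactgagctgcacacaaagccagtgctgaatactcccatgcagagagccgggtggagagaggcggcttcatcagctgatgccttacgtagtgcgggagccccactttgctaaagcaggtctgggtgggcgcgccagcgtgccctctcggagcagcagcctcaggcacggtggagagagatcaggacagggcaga

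4 motifs were searched on both strands of these windows, and none of them overlaps another in the matches found. GGGCGG was found once in the Htr1d window and once in that of Htr1a, and not in those of Htr2c and Htr5a. It is present in 32.7% of all 32851 RefSeq promoter windows of 250 bases, and in 23.9% of those cut to the 196 bases of the Htr1a window. AGAACA, a half-site of the glucocorticoid receptor, was found in none of the 4 windows and is in 16.1% of all windows of 250 bases. TATAAA and the cyclic AMP response element TGACGTCA were not found in them either, and are in 12.4% and 1.55% of all windows of that length. In the first 196 bases of all windows these shares were 13.1% for AGAACA, 9.00% for TATAAA and 0.782% for TGACGTCA. Windows cut this way stop short of the RefSeq start. The Htr1a window does so too, but it ends just before its GENCODE start, so the shares may not match its position. A match is a string of letters and not a measured site.

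Htr1b and Htr1d encode related Gi/o-coupled receptors, known from axon terminals and as targets of the triptan drugs. Htr1b, on chromosome 9 from 81628291 to 81633828, was counted 37, 43 and 28 times in the stress libraries and 23, 40 and 39 times in the controls. The groups overlapped throughout, with a log2 fold change of 0.13 (SE 0.27) and an adjusted p of 0.935. It was 0.10 without stress replicate 1 and turned to -0.068 without stress replicate 2 and -0.023 without control replicate 1. D430036J16Rik overlaps Htr1b on the opposite strand.

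Htr1d was the only one of the 10 near the counting floor, taken as 3 counts per library, or 0.297 to 0.361 CPM. It did not pass the filter and was not tested. It was counted 22, 2 and 5 times in the stress libraries and 2, 1 and 6 times in the controls. The 22 counts of stress replicate 1 have a 95% exact Poisson interval of 13.8 to 33.3 counts, and the 6 counts of control replicate 3, the next highest, one of 2.20 to 13.1 counts. These intervals cover counting error in single libraries only, so they do not compare the groups. Htr1d lies on chromosome 4 from 136423524 to 136444398.

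Htr3a, on chromosome 9 from 48899213 to 48911099, is known from a class of cortical and hippocampal interneurons. It was at 11.7, 10.7 and 10.6 CPM in the stress libraries and at 9.07, 7.54 and 11.3 CPM in the controls. The stress values lay close together, and control replicate 3 fell among them. Its log2 fold change of 0.24 (SE 0.17) had an adjusted p of 0.756. It was 0.20 without stress replicate 1, 0.11 without control replicate 2 and 0.41 without control replicate 3. Summed markers of GABAergic interneurons were at 1395 to 1492 CPM in stress and 1373 to 1564 CPM in controls, with Cnr1 and Gad1 the most abundant. The sum joins genes that differed in direction. With all 6 libraries, 6 of the 12 markers had a positive and 6 a negative log2 fold change, with Cnr1 at 0.26 and Gad1 at -0.18. Gm32335 overlaps Htr3a on the opposite strand.

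Htr4 was the only one of the 10 receptor genes whose groups did not overlap. It lies on chromosome 18 from 62324204 to 62496577. It was at 39.0, 34.0 and 33.6 CPM in the stress libraries and at 31.8, 31.0 and 24.4 CPM in the controls. Every stress library lay above every control, as they did for 6.74% of all tested genes. Means were 35.5 ± 3.01 CPM in stress and 29.1 ± 4.05 CPM in controls (SD, n = 3 each). The log2 fold change of 0.29 (SE 0.12) had an adjusted p of 0.562. Without stress replicate 1 it was 0.22, with an adjusted p of 0.528. The remaining stress libraries still lay above every control, as for 14.6% of all genes tested in that fit. Without control replicate 3 the log2 fold change was 0.18. Striatal neurons also express Htr4, and the part that striatal RNA has in the value of stress replicate 1 was not tested.

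Htr7 lies on chromosome 19 from 35958734 to 36057507 and encodes the second Gs-coupled receptor of the group, known from thalamus and hippocampus. It was at 12.0, 7.21 and 4.36 CPM in the stress libraries and at 12.1, 8.23 and 12.9 CPM in the controls. Stress replicates 2 and 3 lay below every control, while stress replicate 1 lay among them. All 6 libraries gave a log2 fold change of -0.49 (SE 0.33) and an adjusted p of 0.754. Leaving out stress replicate 1 gave -0.94 and an adjusted p of 0.147, the lowest adjusted p of any receptor gene in any setting run. The unadjusted p of Htr7 was then 0.00334, the only one of the 9 under 0.05, where 11.5% of all genes tested in that fit were under it. Stress lay below control for 14.6% of those genes. Leaving out stress replicate 3 gave -0.19. Summed markers of thalamus and habenula, led by Rora and Slc17a6, were at 146, 239 and 211 CPM in stress and 293, 356 and 355 CPM in controls. Their part in the Htr7 values was not tested.

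**Figure D2:**
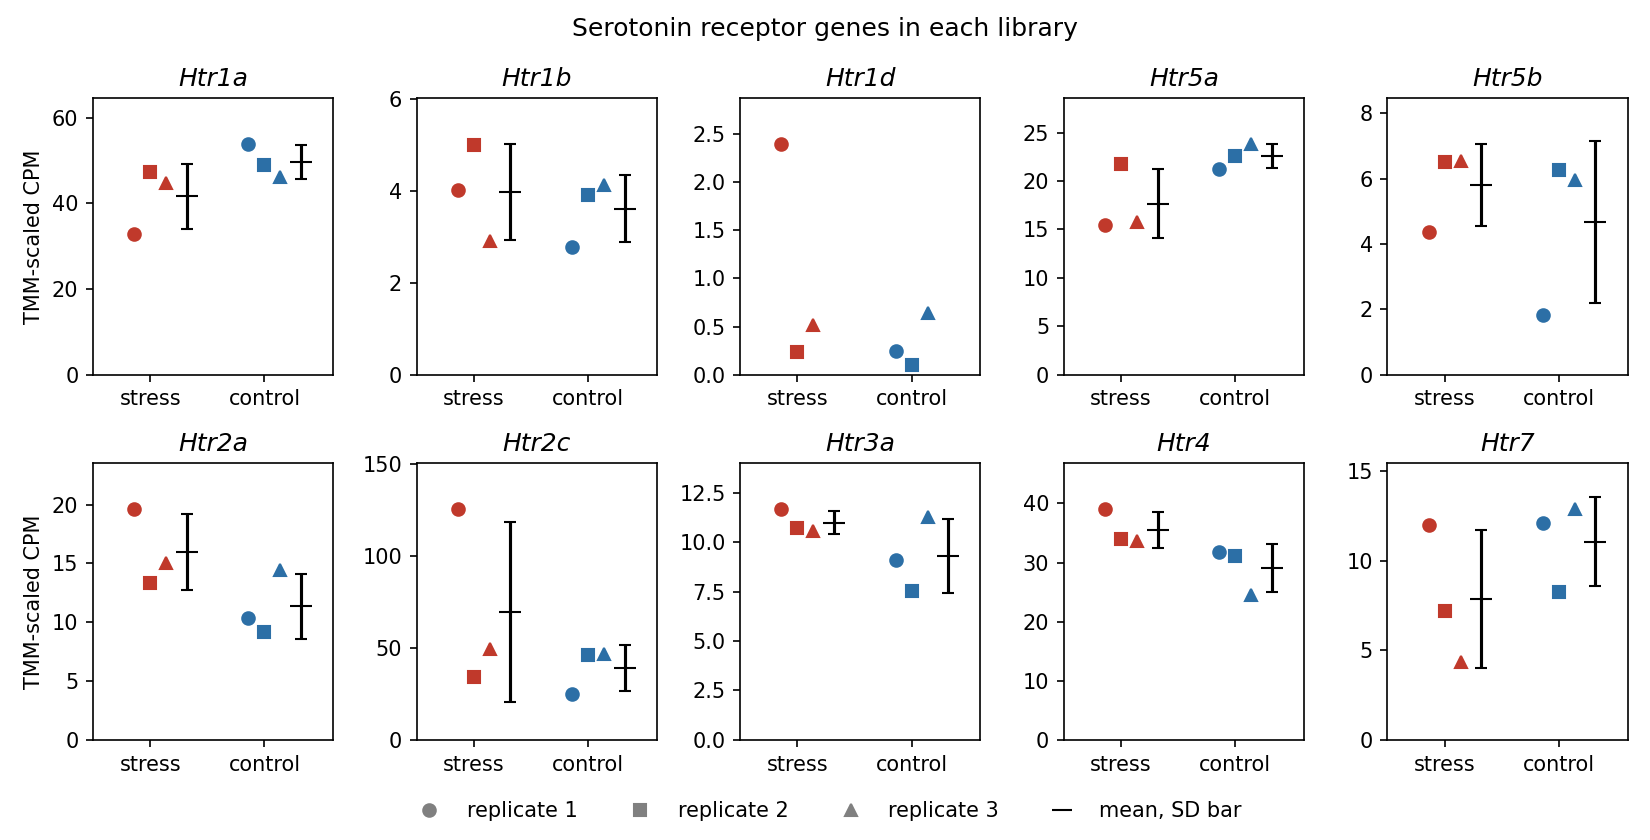
Each point is the TMM-scaled CPM of 1 library, with stress left of control, and black bars give the mean and SD of 3 libraries, left out for Htr1d because of its low counts. Only for Htr4 do the stress points, 33.6 to 39.0 CPM, all lie above the control points, 24.4 to 31.8 CPM.

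Among the 9 tested genes, stress replicate 1 was the highest of the 6 libraries for 4 (Htr2a, Htr2c, Htr3a and Htr4) and the lowest for 2 (Htr1a and Htr5a). Over all tested genes it was the highest for 25.5% and the lowest for 25.3%. By coupling, both Gq genes and the channel gene Htr3a had positive log2 fold changes. The 4 tested Gi/o genes split into 2 positive and 2 negative, and the Gs genes into 1 positive and 1 negative. In a fit without stress replicate 1, 0 of the 9 were called, against 0.289% of all genes tested there.

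**Figure D3:**
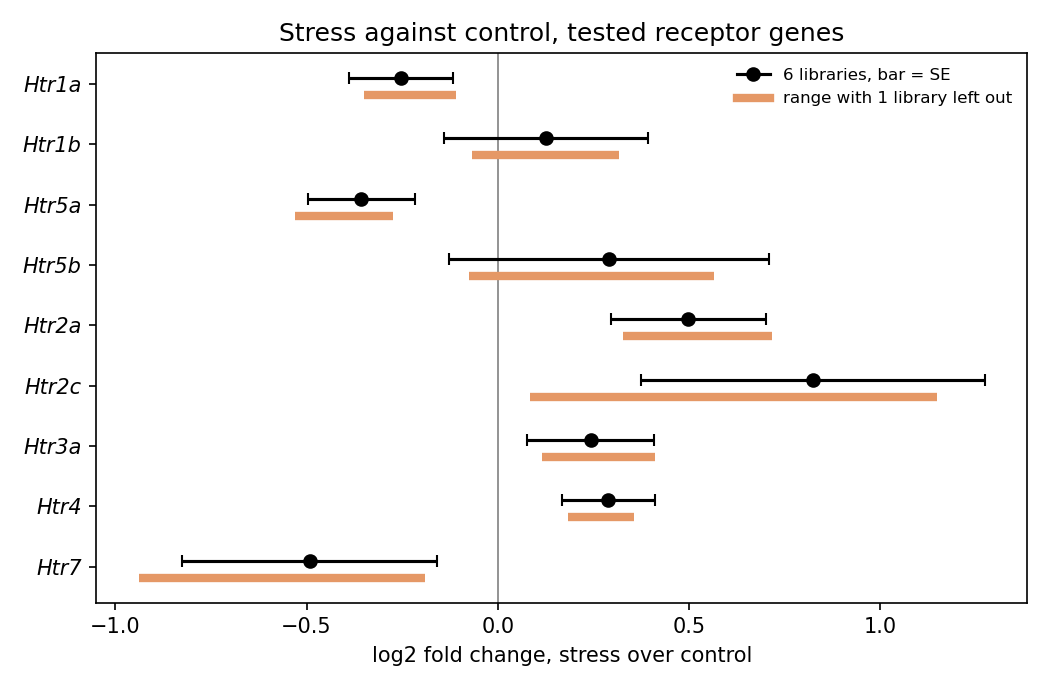
Points give the edgeR log2 fold change of stress over control for the 9 tested receptor genes with all 6 libraries. Bars give 1 standard error from limma-voom, and thick lines give the range when 1 library is left out. The range crosses 0 for Htr1b and Htr5b, and for Htr2c it runs from 0.084 to 1.15.

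Levels were compared between receptor genes per kilobase of exon (GENCODE M21). In controls Htr1a was the most abundant, at 11.1 ± 0.877 CPM per kb, apart from Htr4 at 5.93 ± 0.824 (SD, n = 3 each). Below it the neighbours Htr4, Htr3a at 4.46, Htr5a at 4.20, Htr2c at 4.19, Htr7 at 3.25, Htr5b at 2.42 and Htr2a at 2.03 each overlapped the next over the 3 libraries. Htr1b at 0.765 and Htr1d at 0.102 CPM per kb lay apart below these and from each other. In stress Htr1a was again the highest, at 9.28 ± 1.71 CPM per kb, but overlapped Htr2c at 7.45 ± 5.23, which overlapped Htr4 at 7.24 ± 0.613. Stress replicates 2 and 3 alone averaged 4.46 CPM per kb for Htr2c. Htr3a at 5.27 CPM per kb was apart from both its neighbours there, Htr4 above and Htr5a at 3.29 below. Htr5a, Htr5b at 3.00, Htr2a at 2.86 and Htr7 at 2.31 each overlapped the next, and Htr1b at 0.842, which lay apart from Htr7, overlapped Htr1d at 0.328.

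The place of Htr2c depends on the length used and on stress replicate 1. Its exons cover 9328 bases together but the longest transcript is 4883 bases. Over all 6 libraries Htr2c averaged 5.82 CPM per kb of all exons and 11.1 CPM per kb of the longest transcript, against 10.2 for Htr1a by either length. Without stress replicate 1 the means were 4.30 and 8.22 CPM per kb for Htr2c and 10.7 for Htr1a. Of these means, that of Htr2c lay above Htr1a only by the longest transcript and with that library included. In stress replicate 1 itself Htr2c was at 13.4 and Htr1a at 7.33 CPM per kb of all exons. In controls Htr2c averaged 8.01 CPM per kb of the longest transcript. Of the receptor CPM per kb summed over the 10 genes, Htr2c made up 27.9% in stress replicate 1 and 9.33% and 13.8% in the remaining stress libraries. In controls its share was 7.29% to 13.0%. Htr1a made up 15.3%, 26.8% and 26.1% in the stress libraries, against 25.3% to 32.9% in controls. The sum itself was 48.0, 39.3 and 38.2 CPM per kb in stress and 36.5, 38.2 and 40.6 CPM per kb in controls, so stress replicate 1 was the highest library and the others lay close together.

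**Figure D4:**
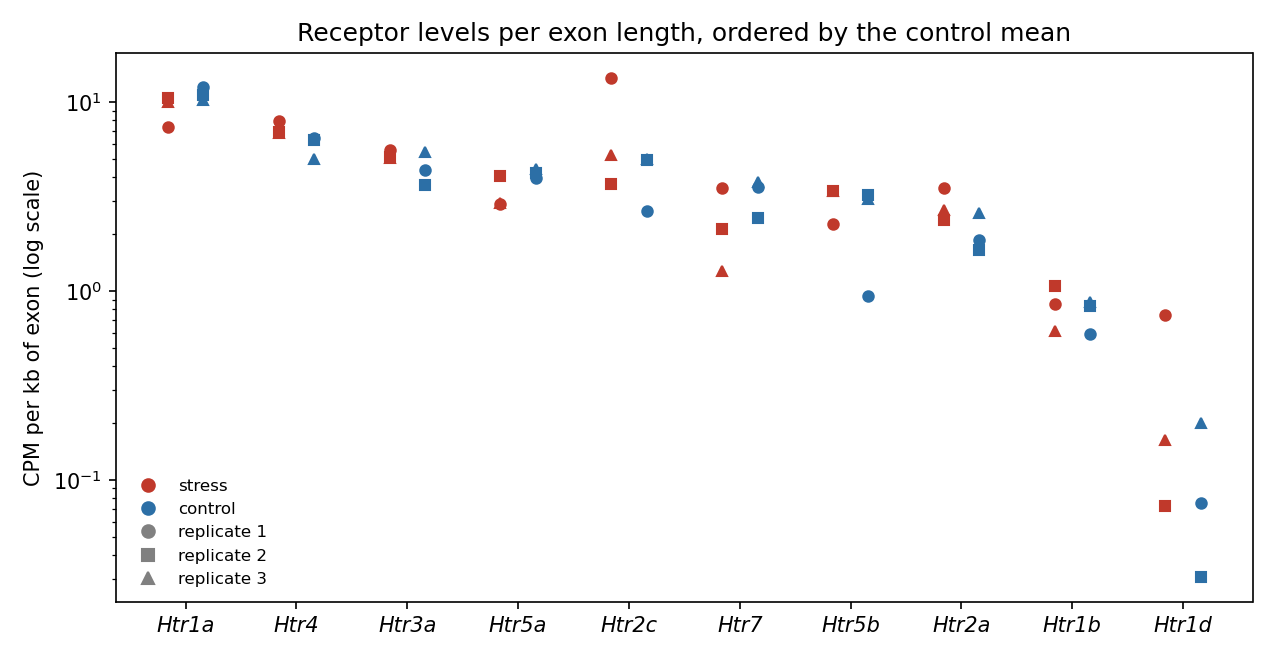
Each point is 1 library, as TMM-scaled CPM per kb of exon on a log axis, with genes ordered by the control mean and stress left of control. Htr1a is highest in controls at 11.1 CPM per kb on average, Htr1d is lowest at 0.102, and the Htr2c point of stress replicate 1 stands above its other 5.

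4 other serotonin receptor genes are in the files and were not among the 10. Htr1f, a Gi/o-coupled receptor, was counted 73, 44 and 40 times in the stress libraries and 31, 40 and 39 times in the controls. In CPM its stress values of 7.95, 5.12 and 4.15 lay above the control values of 3.75, 3.92 and 4.14, the closest pair being 4.15 in stress replicate 3 and 4.14 in control replicate 3. Such groups were seen for 6.74% of all tested genes. Over library totals without TMM scaling, that closest pair was 4.16 CPM in stress replicate 3 and 4.18 CPM in control replicate 3. The groups then overlapped. For Htr1f the log2 fold change was 0.54 (SE 0.26), at an adjusted p of 0.617. Leaving out stress replicate 1 gave 0.23. Htr6, a Gs-coupled receptor, was counted 11, 12 and 18 times in stress and 11, 9 and 10 times in controls, with a log2 fold change of 0.46 (SE 0.32) at an adjusted p of 0.774. Leaving out stress replicate 1 gave 0.60. Htr2b, with 0 counts in every stress library and at most 1 in a control, and Htr3b, with at most 1 count in any library, were within the counting floor.

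Over the 6 libraries the gene whose profile was most like that of Htr2c was Oprk1, the kappa opioid receptor gene, with a root mean square difference of 0.14 in centred log2 CPM. Fam161a, Chia1 and Serpinb8 were also among the 5 closest, with differences of 0.20 to 0.25. Oprk1 was at 5.34, 1.40 and 2.08 CPM in the stress libraries and at 0.967, 1.86 and 2.55 CPM in the controls, so the same library was high and the same control low. For Htr5b, the other gene with a wide spread, Emid1, Kcnh6, Alox12b, Chst8 and Pld4 were the most alike, with differences of 0.17 to 0.27, and each was lowest in control replicate 1. The genes named are among the closest of all eligible genes over 6 libraries and are given as a description.

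Genes that make, move and break down serotonin did not pass the test. Of 14 on that list 10 were tested, 7 with a positive and 3 with a negative log2 fold change, with a median of 0.10. Leaving out stress replicate 1 gave 5 and 5, with a median of 0.040. Fev, a transcription factor of serotonergic neurons, had 0 counts in all 6 libraries. The 95% exact Poisson interval of 0 counts reaches 3.69 counts. The serotonin transporter gene Slc6a4 had 1 count in each stress library and 1, 1 and 3 in the controls. Tph2, the neuronal enzyme of serotonin synthesis, was counted 15, 12 and 8 times in stress and 11, 17 and 7 times in controls. Maoa, for the monoamine oxidase that prefers serotonin, was at 44.9 ± 4.79 CPM in stress and 48.3 ± 4.58 CPM in controls (SD, n = 3 each), a log2 fold change of -0.10 (SE 0.11). Maob was at 0.25 (SE 0.14), Ddc at 0.25 (SE 0.25) and Pts at 0.17 (SE 0.16). Maob was at 0.11, Ddc at -0.029 and Pts at 0.12 when stress replicate 1 was left out. Slc29a4, a low-affinity monoamine transporter, was at 20.5 ± 3.59 CPM in stress and 17.4 ± 0.240 CPM in controls, a log2 fold change of 0.24 with an adjusted p of 0.671. Its stress libraries all lay above its controls, as for 6.74% of all tested genes. The closest pair was 17.8 CPM in stress replicate 1 and 17.6 CPM in control replicate 3. Over library totals without TMM scaling this pair was 17.4 and 17.8 CPM, and the groups overlapped. The fold change was 0.34 without stress replicate 1 and 0.097 without stress replicate 3.

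Proteins that bind or edit the receptors also did not pass. All 14 of these genes found in the files were tested, with 6 positive and 8 negative log2 fold changes and a median of -0.025. They were 7 and 7 without stress replicate 1, with a median of -0.0046. S100a10, whose product p11 binds the Htr1b and Htr4 receptors, was at 10.6 ± 3.08 CPM in stress and 9.00 ± 3.14 CPM in controls (SD, n = 3 each). The difference was 0.22 on the log2 scale (SE 0.29), at an adjusted p of 0.882. Adarb1, an enzyme that edits Htr2c transcripts, was at -0.14 (SE 0.10). The scaffold gene Dlg4 was at 0.17 (SE 0.08), the arrestin gene Arrb1 at -0.15 (SE 0.07) and Ahnak, a partner of p11, at -0.16 (SE 0.08). Their adjusted p-values ran from 0.611 to 0.780. Adarb1 was at -0.25, Dlg4 at 0.20, Arrb1 at -0.092 and Ahnak at -0.15 without stress replicate 1.

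Of the 29 genes for G proteins and effectors, all tested, 17 had a positive and 12 a negative log2 fold change, with a median of 0.062 and none called. These counts were again 17 and 12 without stress replicate 1, with a median of 0.0030. With all 6 libraries, 7 of the 29 had an unadjusted p under 0.05 by edgeR's quasi-likelihood test, against 8.71% of all tested genes. Stress lay above control in all libraries for 4 of the 29 and below for 6, against 6.74% and 7.87% of all tested genes. Whether the list differs from all genes was not tested. Prkacb, a catalytic subunit of the cyclic AMP-dependent kinase, was at 460 ± 43.6 CPM in stress and 589 ± 15.9 CPM in controls (SD, n = 3 each). Its log2 fold change of -0.36 (SE 0.08) had an adjusted p of 0.260 by edgeR's quasi-likelihood test and 0.0242 by DESeq2, and the range over all settings was 0.0242 to 0.780. Its fold change was -0.30 without stress replicate 1. Stress lay below control in all libraries for Prkacb, as for 7.87% of all tested genes. Among the adenylyl cyclases, Adcy8 was at 34.2 ± 13.7 CPM in stress and 59.2 ± 5.29 CPM in controls, a log2 fold change of -0.79 (SE 0.26), with -0.51 without stress replicate 1. Adcy9 was at 0.23 (SE 0.08), and at 0.17 without that library. Adcy5, the main cyclase of striatal neurons, was at 0.59 (SE 0.20) with all libraries and 0.28 without stress replicate 1. The striatal markers were high in that library, and their part in the Adcy5 values was not tested.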

How the data were processed

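6 libraries were analysed, per the labels' protocols stranded, single-end total RNA depleted of ribosomal RNA. The deposited values are counts per gene symbol. Builds mm10 and GRCm38 are listed in the submitters' processing notes, as are HTSeq 0.6.1, TopHat2 2.0.9, edgeR 3.12.0, Trimmomatic 0.33 and FastQC 0.11.3. The sources used here do not give the annotation, the counting options or the use of strand. Gene counts summed to 8305753 to 10107953 per library. HTSeq summary rows were left out: reads in no gene were 59.5% to 63.1% of those listed, ambiguous ones 0.211% to 0.253%.

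Genes were filtered with filterByExpr, scaled by TMM (factors 0.982 to 1.01) and tested with edgeR 4.0.16 (quasi-likelihood, two-sided, R 4.3.3), with Benjamini-Hochberg adjustment over 14058 genes and a threshold of 0.05. Adjusted p-values are from this test unless another is named. Standard errors come from limma 3.58.1 (voom) and stand beside the edgeR log2 fold changes. The fold changes of limma-voom can differ from these, as for Htr2c at 0.65 against 0.82. The fit was checked on simulated counts. Alternatives were DESeq2 1.42.0, edgeR's exact test, limma-voom, other scalings and filters, a replicate block and each library left out. Named genes were all receptor genes, Tph2, Slc6a4, S100a10 and Maoa, the 4 with the smallest p of each pathway list, and the 2 most abundant of each marker list, or 4 where 1 library's sum was over 2 times every other. Likeness was computed for the 2 receptor genes with the largest SD of log2 CPM. One gene that this rule names is not reported here. Members and lists were chosen with earlier results of these data known.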

Additional observations from a re-analysis of the deposited data

How the results depend on the processing

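The number of receptor genes called was 0 in each of the 15 alternatives run. Over all genes, 4 were called in the fit reported, 107 by DESeq2, 131 by edgeR's exact test and 1 by limma-voom, and 0 with the replicate block. With 1 library left out the count ran from 0 to 41. Without stress replicate 1 it was 41, without stress replicate 2 it was 28, and without any other library it was 0. The replicate numbers were not taken as pairs, because the labels do not say that they mark a shared litter, batch or day. Deviations from the group mean correlated at 0.137, -0.00759 and 0.042 between same-numbered libraries. Between libraries of different number the correlations were -0.153 to 0.122. With 3 libraries per group these values cannot settle whether the numbers mark pairs. The block changed no receptor call, and it moved Htr2c to 0.64. Of the receptor fold changes, all 81 under another scaling, filter, test or the block kept their sign, as did 51 of 54 with 1 library left out. The others were Htr1b, which ran from -0.068 to 0.32, and Htr5b, from -0.074 to 0.57. Among pathway genes Tph2 ran from -0.23 to 0.32, S100a10 from -0.041 to 0.43 and Ddc from -0.029 to 0.41. The cause was not tested. Prkacb passed by DESeq2 alone. Scaling by library totals moved the median of all genes to -0.010. At library totals of 8305753 to 10107953 counts, Htr2b and Htr3b lay under 3 counts in every library and Htr1d in 3 of 6.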

Other observations

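Marker lists of other cell types, given here as values, also differed between libraries. The 7 CA3 pyramidal markers found in the files were each highest in stress replicate 1 and summed to 1712, 1118 and 1184 CPM in the stress libraries and 1074, 910 and 1059 CPM in the controls, with Sv2b and Nptx1 the most abundant. The 6 CA1 and subiculum markers, led by Mpped1 and Wfs1, summed to 404, 569 and 678 CPM in stress. The controls were at 395, 487 and 612 CPM. Control replicate 1 was the lowest library by this sum. Mpped1 was lowest in stress replicate 1, at 116 CPM, and Wfs1 in stress replicate 3, at 57.4 CPM. The 7 hilar mossy cell markers, led by Ociad2 and Trpc6, summed to 222, 245 and 283 CPM in stress and 231, 255 and 256 CPM in controls. Markers of serotonergic neurons, led by Gata2 and Slc18a2, summed to 5.66, 7.21 and 4.77 CPM in stress and 4.72, 6.36 and 6.27 CPM in controls, with Fev at 0 counts throughout.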
